A study of Bos taurus with 24 samples.

Results

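NR3C1, the glucocorticoid receptor, and 5 genes known as its targets, FKBP5, TSC22D3, KLF9, SGK1 and DUSP1, were followed in bovine muscle satellite cells grown with or without fibroblasts. Members were chosen by gene symbol in the annotation that accompanies the counts, and all 6 were found, each on 1 row, among the 11937 genes of the count table. After 72 h of differentiation NR3C1, FKBP5, TSC22D3 and KLF9 were higher in coculture than in monoculture, KLF9 by the most, while SGK1 and DUSP1 were lower. The receptor and both FKBP5 and TSC22D3 were lower in coculture during proliferation, so the direction of their difference turned round over the time course.

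The glucocorticoid receptor is a nuclear receptor that waits in the cytoplasm in a complex with HSP90 and its co-chaperones, enters the nucleus when cortisol or a synthetic steroid binds it, and raises or lowers transcription at its target genes. In skeletal muscle it is known above all for driving protein breakdown in wasting and for restraining inflammatory gene expression. FKBP5 is both a target and a brake, since its product sits in the HSP90 complex and lowers the receptor's affinity for hormone. TSC22D3, also called GILZ, carries part of the anti-inflammatory action, KLF9 is a zinc finger transcription factor, SGK1 is a kinase that regulates ion channels and cell survival, and DUSP1 is a phosphatase that switches off MAP kinases. SGK1 and DUSP1 are known as well to respond to serum and growth factors, so they do not report on the receptor alone.

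RNA sequencing was done on 24 libraries in 6 groups of 4, which are coculture and monoculture in proliferation, at 24 h and at 72 h of differentiation. All groups were wild type (WT) satellite cells from the longissimus dorsi muscle, a mix of 3 lines at passage 3, seeded at 8000 cells/cm2 and grown for 5 days with 20% fetal bovine serum before differentiation was started with 10% horse serum. In coculture, fibroblasts at passage 10 were grown alongside in plates with a porous divide (0.4 µm), and the study asked what the factors they release do to satellite cells. The labels used here name no added glucocorticoid, and they do not say that replicate libraries came from separate cultures, so p-values rest on a spread between libraries that may be technical.

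Library totals ran from 11.54 to 34.96 M counts, and every gene in the table had at least 6 counts in each library. The members had 52 (KLF9) to 14293 (DUSP1) counts per library, so none was near the detection limit. Levels are given in CPM, counts scaled to a common library size with TMM factors, and were not corrected for gene length, so they are compared between groups and not between genes. Of 13 myogenic markers, 3 (DES, ITGA7 and MEF2C) were measured, and the satellite cell and myoblast regulators PAX7, MYF5, MYOD1 and MYOG were not analysed here, so the labelled cell type could be checked against few of its defining genes. All monoculture libraries and the coculture libraries of proliferation were sequenced on lane 6, the coculture libraries of 24 h were split between lanes 6 and 7, and those of 72 h were all on lane 7. Lane and culture therefore cannot be told apart at 72 h except through a lane term that rests on the 24 h coculture libraries. The same holds for lane and time between proliferation and 72 h in coculture. A code in the labels, of unstated meaning, also separates the cultures at 24 h and 72 h. Within monoculture that code separates proliferation from the later times.

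Some libraries stood apart from the others of their group over all genes. The chi-square of counts per degree of freedom was 117 to 144 between replicate 2 of coculture at 24 h and its group, against 2.95 to 3.84 among the other 3, and 47.1 to 53.8 between replicate 1 of coculture at 72 h and its group, against 2.18 to 3.09. In monoculture at 72 h it was 34.4 to 74.5 between replicates 3 or 4 and the other libraries, which differed from each other by 5.80. These 4 libraries are also those with more than 1.5% of counts in ribosomal RNA. Replicate 2 of coculture at 24 h was on lane 6. Results with a lane term or with lane 6 alone, at 72 h too, therefore cannot be told apart from an effect of that library. Without them the 72 h differences of coculture from monoculture were 0.69 for NR3C1, 0.34 for TSC22D3, 0.85 for FKBP5, 1.61 for KLF9, -0.21 for SGK1 and -0.83 for DUSP1 (log2), all called (the largest adjusted p being 0.0021). At 24 h they were 0.17, 0.25, 0.02, 0.51, -0.33 and 0.28 for the genes in that order, and TSC22D3, KLF9, SGK1 and DUSP1 were called, as with all libraries.

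**Figure D1:**
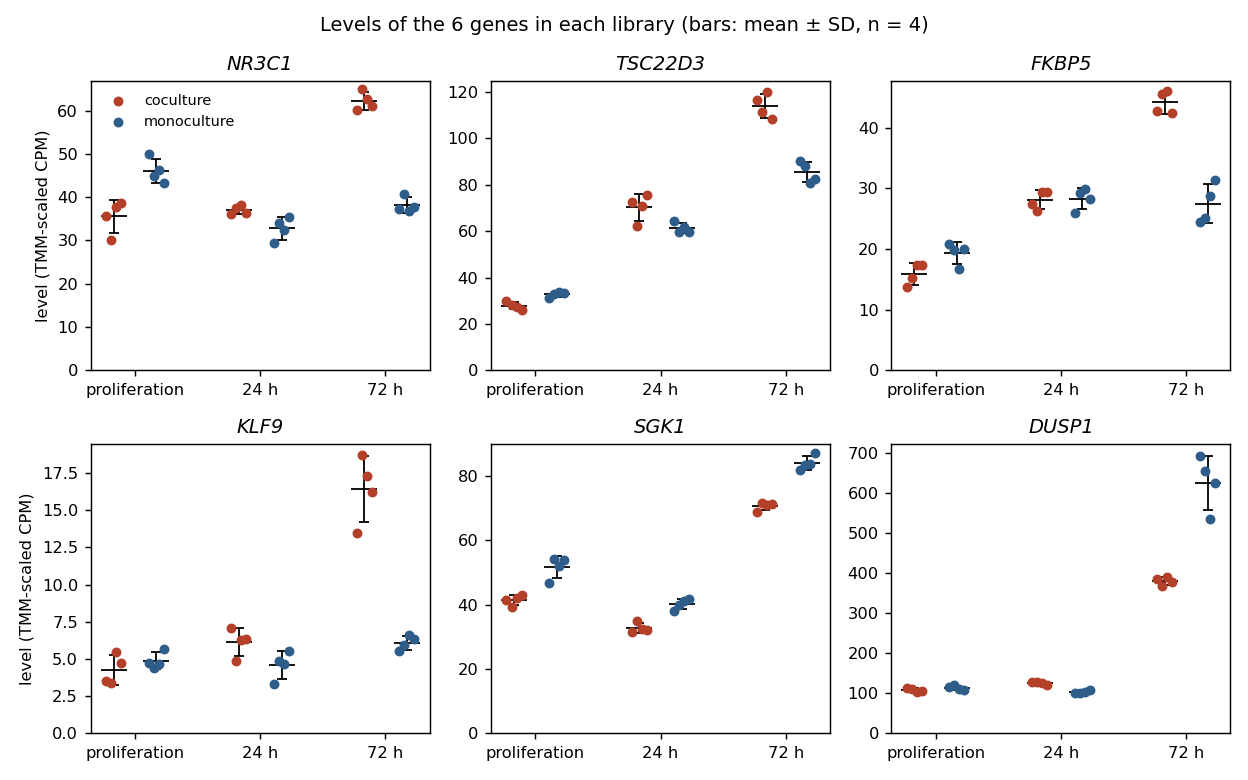
Level of each of the 6 genes in every library, in TMM-scaled CPM on a linear axis from 0, with coculture in red to the left of monoculture in blue at each time and bars for the mean ± SD of 4 libraries. At 72 h the coculture points lie above all monoculture points for NR3C1, TSC22D3, FKBP5 and KLF9 and below them for SGK1 and DUSP1.

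NR3C1 (ENSBTAG00000019472, chromosome 7, 54344785 to 54463271 in the files' coordinates, of a genome build that the sources do not state) is the receptor itself. In proliferation the 4 coculture libraries had 35.7, 30.1, 37.8 and 38.7 CPM, and the 4 monoculture libraries had 49.9, 45.0, 46.2 and 43.2 CPM. At 24 h the values were 36.2, 37.4, 38.2 and 36.3 CPM in coculture and 29.4, 34.0, 32.3 and 35.4 CPM in monoculture. At 72 h they were 60.1, 65.0, 62.6 and 61.1 CPM in coculture and 37.2, 40.8, 36.7 and 37.8 CPM in monoculture. The cultures did not overlap at any of the 3 times, with coculture below monoculture in proliferation and above it afterwards. Coculture over monoculture, the log2 fold change was -0.39 ± 0.06 (SE) in proliferation (adjusted p = 5.64e-06), 0.17 ± 0.06 at 24 h (adjusted p = 0.0503) and 0.71 ± 0.06 at 72 h (adjusted p = 7.7e-11, 1.63-fold). Adjusted p-values here and below come from edgeR's quasi-likelihood F test with Benjamini-Hochberg adjustment over all 11937 genes, and a gene was called at an adjusted p under 0.05. The 24 h difference of NR3C1 lay at that threshold, since it missed it here and the authors' deposited table gives an adjusted p of 0.049 for it. With only the groups compared in the fit it was called (adjusted p = 0.0363). It was further from the threshold with a lane term (0.165, adjusted p = 0.17) and with lane 6 alone (0.163, adjusted p = 0.221).

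Within each culture NR3C1 moved differently. In coculture its 24 h level did not pass the test against proliferation (log2 0.07 ± 0.06, adjusted p = 0.379), and at 72 h it rose 1.77-fold over proliferation (log2 0.82 ± 0.06, adjusted p = 9.06e-13). In monoculture it fell by 0.49 ± 0.06 on the log2 scale at 24 h (adjusted p = 7.01e-08), and at 72 h it was still below proliferation (log2 -0.27 ± 0.06, adjusted p = 0.000319) after a partial recovery of 0.22 ± 0.07 over the 24 h level (adjusted p = 0.00588). With library totals as the only scaling that recovery was 0.09 (adjusted p = 0.31). By mean level the 6 groups ran from 32.8 ± 2.6 CPM (SD, n = 4) in monoculture at 24 h to 62.2 ± 2.2 CPM in coculture at 72 h. The 4 lowest groups, which are monoculture at 24 h, coculture in proliferation, coculture at 24 h and monoculture at 72 h, overlapped their neighbours in that order, while monoculture in proliferation and coculture at 72 h stood clear.

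FKBP5 (ENSBTAG00000047502, chromosome 23, 9555619 to 9677215), the co-chaperone that feeds back on the receptor, had 13.7, 15.2, 17.4 and 17.4 CPM in coculture and 20.7, 19.8, 16.7 and 20.0 CPM in monoculture during proliferation. At 24 h it had 27.3, 26.3, 29.4 and 29.4 CPM in coculture and 25.9, 29.2, 29.8 and 28.2 CPM in monoculture. At 72 h it had 42.7, 45.6, 46.0 and 42.4 CPM in coculture and 24.4, 25.2, 28.8 and 31.3 CPM in monoculture. The cultures overlapped in proliferation and at 24 h and separated at 72 h. Coculture was lower in proliferation (log2 -0.29 ± 0.08, adjusted p = 0.00361), not called at 24 h (log2 -0.01 ± 0.07, adjusted p = 0.943) and 1.62-fold higher at 72 h (log2 0.70 ± 0.07, adjusted p = 2.82e-09).

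The time courses of FKBP5 parted after 24 h. It rose over proliferation by 24 h in coculture (log2 0.83 ± 0.08, adjusted p = 7.44e-10) and in monoculture (log2 0.55 ± 0.08, adjusted p = 2.5e-07). Between 24 h and 72 h it rose again in coculture (log2 0.65 ± 0.07, adjusted p = 5.89e-09), while in monoculture the change was -0.06 ± 0.08 and did not pass the test (adjusted p = 0.546). With library totals alone that monoculture value was -0.19 and called lower (adjusted p = 0.0481), beside a median over all genes of -0.13, and without the libraries rich in ribosomal RNA it was -0.19 (adjusted p = 0.0561). At 24 h the 2 coculture libraries on lane 7 had 29.4 CPM each and those on lane 6 had 26.3 and 27.3 CPM, so the lanes did not overlap. Nor did they for DUSP1, at 120.5 to 125.6 CPM on lane 7 and 127.5 to 128.0 CPM on lane 6. For NR3C1, TSC22D3, KLF9 and SGK1 the lanes overlapped. With 2 libraries on each lane, ranges often part without any lane effect, and the share of all genes that did so was not computed. With a lane term the 24 h difference of FKBP5 between cultures was -0.08 (log2, adjusted p = 0.603). The difference between lanes was not itself tested. Monoculture at 72 h, coculture at 24 h and monoculture at 24 h overlapped in their levels, at means of 27.4, 28.1 and 28.3 CPM.

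TSC22D3 (ENSBTAG00000045877, chromosome X, 56329804 to 56397423), the leucine zipper protein GILZ, increased with time in both cultures and did so by more in coculture. In proliferation it had 29.7, 28.3, 27.4 and 26.2 CPM in coculture and 31.2, 32.9, 33.8 and 33.2 CPM in monoculture. At 24 h it had 72.4, 62.1, 70.9 and 75.5 CPM in coculture and 64.5, 59.8, 61.8 and 59.6 CPM in monoculture. At 72 h it had 116, 112, 120 and 108 CPM in coculture and 90.4, 88.3, 81.0 and 82.6 CPM in monoculture. Only at 24 h did the cultures overlap, through the coculture library with 62.1 CPM, which is also the library with the largest share of ribosomal RNA (4.07% of counts). On the log2 scale coculture differed from monoculture by -0.23 ± 0.06 in proliferation (adjusted p = 0.00118), 0.20 ± 0.05 at 24 h (adjusted p = 0.00586) and 0.41 ± 0.05 at 72 h (adjusted p = 5.02e-08). The 24 h call was lost with a lane term (0.13, adjusted p = 0.155) and with lane 6 alone (0.13, adjusted p = 0.198). The library with 62.1 CPM is on lane 6. Without the libraries rich in ribosomal RNA, of which it is 1, the 24 h difference was 0.25 (adjusted p = 0.000116). Over proliferation, coculture had risen 2.51-fold at 24 h and 4.08-fold at 72 h, and monoculture 1.87-fold and 2.61-fold (log2 1.33 ± 0.06, 2.03 ± 0.05, 0.91 ± 0.05 and 1.39 ± 0.05, the largest adjusted p of the 4 being 6.78e-15).

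KLF9 (ENSBTAG00000016229, chromosome 8, 46587098 to 46611498), a Krüppel-like factor, showed the widest difference between the cultures at 72 h. It had 3.48, 3.34, 5.47 and 4.71 CPM in coculture and 4.72, 4.39, 4.64 and 5.69 CPM in monoculture during proliferation. At 24 h it had 7.06, 4.87, 6.24 and 6.35 CPM in coculture and 3.27, 4.85, 4.63 and 5.52 CPM in monoculture. At 72 h it had 13.4, 18.7, 17.3 and 16.3 CPM in coculture and 5.51, 5.92, 6.57 and 6.36 CPM in monoculture. The groups overlapped in proliferation and at 24 h, and at 72 h the lowest coculture library lay above the highest monoculture library by more than the whole spread of monoculture. Coculture exceeded monoculture at 72 h by 1.44 ± 0.13 (log2, adjusted p = 2.18e-10), or 2.71-fold, which placed KLF9 at rank 52 of 11937 genes from the top.

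Earlier differences of KLF9 were small against its spread, which reached 24.0% of the mean (SD, coculture in proliferation). Its fold change was -0.26 ± 0.16 in proliferation (log2, adjusted p = 0.166) and 0.41 ± 0.15 at 24 h (log2, adjusted p = 0.0475). That 24 h call was lost in 6 of the 8 fits that left out 1 library of the groups compared (0.30 to 0.51, adjusted p 0.0204 to 0.168), and with lane 6 alone (0.37, adjusted p = 0.225). In coculture KLF9 rose 1.51-fold at 24 h (adjusted p = 0.00277) and 4.04-fold at 72 h (adjusted p = 1.1e-13) over proliferation. In monoculture its changes over proliferation were -0.08 ± 0.16 at 24 h (log2, adjusted p = 0.645) and 0.31 ± 0.15 at 72 h (log2, adjusted p = 0.0659), and neither was called. The 5 groups other than coculture at 72 h followed each other in level with overlapping libraries, from a mean of 4.25 to 6.13 CPM.

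SGK1 (ENSBTAG00000004269, chromosome 9, 72305986 to 72314330), the serum and glucocorticoid regulated kinase, was lower in coculture at every time and by about the same amount. In proliferation it had 41.4, 39.2, 42.2 and 43.0 CPM in coculture and 46.6, 54.1, 52.0 and 53.8 CPM in monoculture. At 24 h it had 31.5, 34.9, 32.4 and 32.1 CPM in coculture and 38.1, 39.8, 41.2 and 41.7 CPM in monoculture. At 72 h it had 69.0, 71.8, 71.0 and 71.5 CPM in coculture and 81.9, 83.5, 83.7 and 87.3 CPM in monoculture. No coculture library reached the lowest monoculture library of its time. The log2 fold change was -0.32 ± 0.05 in proliferation (adjusted p = 8.75e-07), -0.30 ± 0.05 at 24 h (adjusted p = 2.96e-05) and -0.25 ± 0.04 at 72 h (adjusted p = 2.51e-05), which is 1.19-fold lower at the last time. With a lane term the 72 h value was -0.21 and no longer called (adjusted p = 0.0679).

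Both cultures shared the course of SGK1, a dip followed by a rise. Relative to proliferation it fell at 24 h by 0.34 ± 0.05 in coculture (log2, adjusted p = 1.67e-06) and by 0.36 ± 0.05 in monoculture (log2, adjusted p = 5.64e-08). Relative to 24 h it rose 2.16-fold in coculture and 2.09-fold in monoculture at 72 h. Its lowest group was coculture at 24 h (32.7 ± 1.5 CPM) and its highest monoculture at 72 h (84.1 ± 2.3 CPM), and of neighbouring groups in the order only monoculture at 24 h and coculture in proliferation overlapped.

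DUSP1 (ENSBTAG00000013863, chromosome 20, 4540531 to 4543611), the MAP kinase phosphatase, was induced late in both cultures and by more without fibroblasts. In proliferation it had 112, 109, 102 and 104 CPM in coculture and 115, 119, 109 and 106 CPM in monoculture. At 24 h it had 128, 128, 126 and 120.5 CPM in coculture and 99.8, 101, 103 and 106 CPM in monoculture. At 72 h it had 384, 366, 389 and 376 CPM in coculture and 691, 654, 533 and 623 CPM in monoculture. The cultures overlapped in proliferation, coculture stood above at 24 h and below at 72 h. The log2 fold change between cultures was -0.07 ± 0.05 in proliferation (adjusted p = 0.269), 0.29 ± 0.05 at 24 h (adjusted p = 0.000166) and -0.72 ± 0.05 at 72 h (adjusted p = 1.48e-12), 1.65-fold lower.

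Between 24 h and 72 h DUSP1 rose 3.02-fold in coculture (log2 1.60 ± 0.05, adjusted p = 5.47e-21) and 6.11-fold in monoculture (log2 2.61 ± 0.06, adjusted p = 3.33e-26). By 24 h it had risen slightly over proliferation in coculture (log2 0.23 ± 0.05, adjusted p = 0.000947) and fallen slightly in monoculture (log2 -0.13 ± 0.05, adjusted p = 0.0342). Those early calls depended on the processing. With library totals alone the coculture rise was 0.11 (adjusted p = 0.169) and the monoculture value -0.32 (adjusted p = 4.92e-05), beside medians over all genes of -0.13 and -0.19. The monoculture fall was lost without any 1 of 5 libraries of the 8 compared (the highest adjusted p being 0.138).

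**Figure D2:**
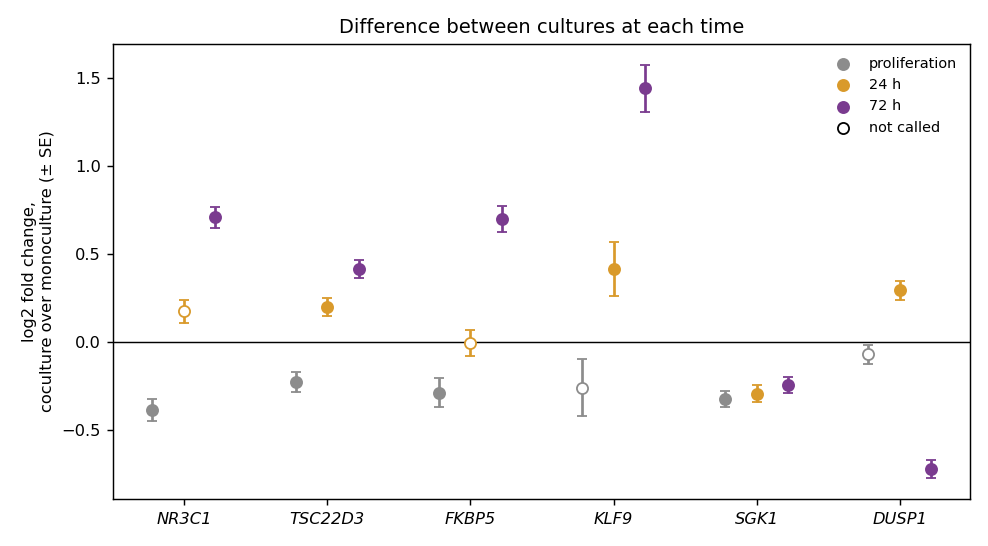
Difference of coculture from monoculture (log2 fold change) for each gene in proliferation (grey), at 24 h (orange) and at 72 h (purple), with bars for ± 1 SE of the fitted difference, filled where called and open where not. SGK1 stays between -0.32 and -0.25, DUSP1 drops to -0.72 at 72 h, and the other 4 genes go from below 0 in proliferation to 0.41 or more at 72 h.

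The share of members that differed between the cultures was near that of all genes in proliferation and above it at 24 h and 72 h. The members were chosen with earlier results of these data known, so a share above that of all genes is not evidence about the set. In proliferation 4 of the 6 were lower in coculture, beside 59.0% of all genes called in either direction, 30.3% higher and 28.7% lower. At 24 h 3 were higher and 1 was lower, with 23.8% of all genes called, 11.5% higher and 12.2% lower. With a lane term or with lane 6 alone 2 members were called at 24 h, and 1977 or 1746 of all genes, against 2836. At 72 h all 6 were called, 4 higher and 2 lower, with 50.5% of all genes called, 25.1% higher and 25.4% lower. With a lane term 5 members were called at 72 h, and 3402 of all genes, against 6029 without it. Libraries of the cultures did not overlap for 3 members in proliferation, 3 at 24 h and 6 at 72 h, and for 53.0%, 24.4% and 42.0% of all genes. The median log2 fold change of the 6 was -0.28, 0.18 and 0.55 at the 3 times, and that of all genes was 0.00 in each. Among 11937 genes at 72 h, NR3C1 held rank 491, FKBP5 rank 505 and TSC22D3 rank 1345 from the highest fold change, and DUSP1 rank 344 from the lowest. The comparisons of successive times share libraries and are not independent of each other.

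Several features of the libraries moved with culture at 72 h. The summed level of the 3 myogenic markers was 115 to 144 CPM in coculture and 290 to 320 CPM in monoculture, that of 7 smooth muscle and pericyte markers 9270 to 10300 CPM and 14000 to 16400 CPM, and that of 8 fibroblast markers 113000 to 117000 CPM and 120000 to 138000 CPM. Within the smooth muscle list all 7 genes were lower in coculture, within the myogenic list 2 of 3 were lower (ITGA7, log2 -2.02 ± 0.08, and DES, -0.78 ± 0.06), and of the fibroblast markers 2 were higher and 2 lower. Of 3 adipocyte markers 2 were lower (summed level 15 to 18.5 CPM in coculture and 25.2 to 26.8 CPM in monoculture), and the endothelial marker VWF was higher (3.38 to 4.35 CPM and 2.08 to 2.51 CPM). Mitochondrial genes took 1.76 to 1.91% of counts in coculture and 2.19 to 2.55% in monoculture. The myogenic sum and the mitochondrial share separated the cultures at both earlier times too. In proliferation they were 155 to 169 CPM and 1.60 to 1.70% in coculture and 110 to 115 CPM and 2.00 to 2.10% in monoculture, and at 24 h 147 to 173 CPM and 2.14 to 2.36% in coculture and 223 to 246 CPM and 2.81 to 3.26% in monoculture. The myogenic sum was thus higher in coculture in proliferation and lower afterwards. In proliferation it did not stand for all 3 genes, of which 1 was called higher and 0 lower (median log2 fold change -0.07). At 24 h 0 of the 3 were called higher and 1 lower (median -0.11). The smooth muscle and fibroblast sums also separated the cultures in proliferation, both higher in coculture. They were 18600 to 20300 and 62600 to 63900 CPM, against 15400 to 15600 and 52700 to 56800 CPM in monoculture. Of their genes 5 and 3 were called higher and 2 and 3 lower. The 1 leukocyte marker measured then had 0.90 to 1.55 and 0.49 to 0.85 CPM in the same order. At 24 h the adipocyte sum was 25 to 27.9 CPM in coculture and 33.4 to 38.2 CPM in monoculture. The part of these features in the results was not tested, and in bulk samples fewer cells of a type and less RNA per cell cannot be told apart. With a lane term NR3C1 (0.69), FKBP5 (0.56), TSC22D3 (0.29), KLF9 (1.35) and DUSP1 (-0.67) kept their 72 h calls on the log2 scale. With library totals as the only scaling the median of all genes moved to 0.13 at 72 h and the share of called genes that were higher went to 75.3%, against 49.7% with TMM scaling, and all 6 members kept their direction and call. SGK1 moved most there in proportion, to -0.12 (adjusted p = 0.0464).

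**Figure D3:**
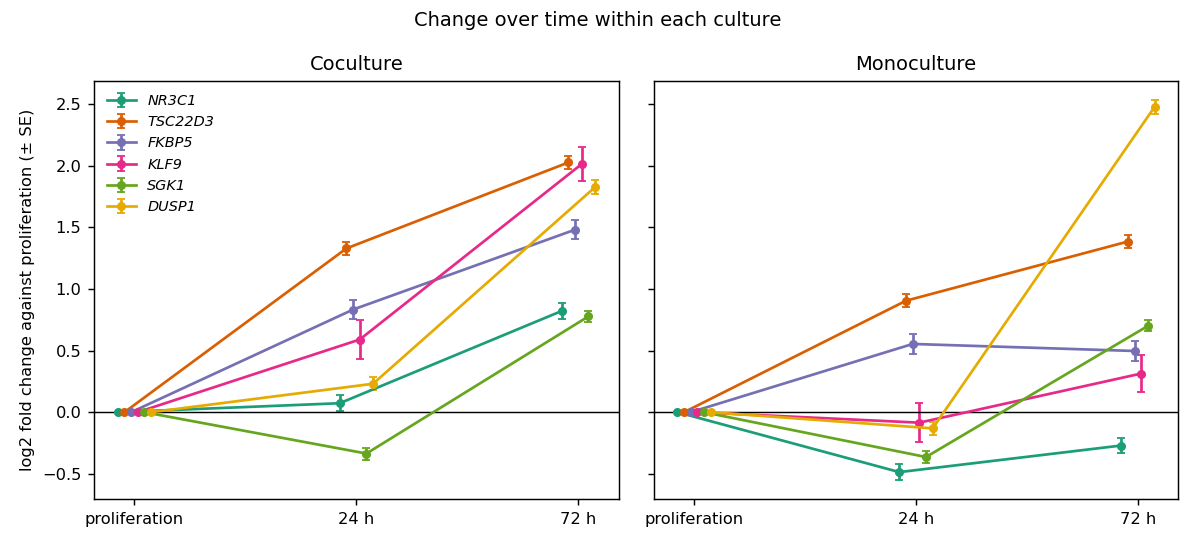
Log2 fold change against proliferation at 24 h and 72 h for the 6 genes, coculture in the left panel and monoculture in the right, with bars for ± 1 SE and proliferation set to 0. NR3C1 and KLF9 end at 0.82 and 2.02 in coculture, against -0.27 and 0.31 in monoculture, and DUSP1 ends at 1.83 in coculture and 2.48 in monoculture.

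Over the whole course, from proliferation to 72 h, all 6 genes rose in coculture, where 60.3% of all genes were called, 30.4% higher and 30.0% lower. Those coculture groups differ in lane as well, and with a lane term all 6 were still called higher. In monoculture TSC22D3, FKBP5, SGK1 and DUSP1 rose, NR3C1 fell and KLF9 was not called, beside 75.0% of all genes called, 37.6% higher and 37.4% lower. With library totals alone, which set the median of all genes to -0.32 there, the monoculture values were -0.59 for NR3C1, 0.38 for SGK1 and 0.18 for FKBP5 (log2), and that of FKBP5 was no longer called (adjusted p = 0.0514). From proliferation to 24 h, coculture had 4 members higher and SGK1 lower with 43.2% of all genes called, 21.0% higher and 22.2% lower. Monoculture had 2 higher (TSC22D3 and FKBP5) and 3 lower with 68.5% called, 34.3% higher and 34.2% lower. From 24 h to 72 h, all 6 rose in coculture, where 48.2% of all genes were called, 24.4% higher and 23.8% lower. In monoculture 5 rose over that interval and FKBP5 was not called, with 53.9% of all genes called, 27.3% higher and 26.6% lower.

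Whether these courses differed between the cultures was tested directly, as the culture difference at the later time minus that at the earlier. From proliferation to 72 h the difference changed in favour of coculture by 1.70 ± 0.21 for KLF9, 1.09 ± 0.09 for NR3C1, 0.99 ± 0.11 for FKBP5 and 0.64 ± 0.08 for TSC22D3 (log2, the largest adjusted p being 5.17e-08), and against it by 0.65 ± 0.08 for DUSP1 (log2 -0.65, adjusted p = 1.77e-08). For SGK1 it was 0.08 ± 0.06 (log2, adjusted p = 0.305), so no change of its culture difference was detectable, and with library totals alone it was 0.28 (adjusted p = 0.0012), beside a median over all genes of 0.21 under that scaling. The same test called 62.3% of all genes. DUSP1 took opposite signs in the intervals, with 0.36 ± 0.08 from proliferation to 24 h and -1.01 ± 0.08 from 24 h to 72 h (adjusted p = 0.000271 and 3.5e-11), where 50.5% and 23.7% of all genes were called. NR3C1 changed by nearly the same amount in each interval, 0.56 ± 0.09 and 0.53 ± 0.09 (adjusted p = 8.44e-06 and 4.5e-05).

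Genes that act with the receptor or under it were grouped by role. Counts for these and the later lists stand beside the shares of all genes called between the cultures. Those shares were 30.3% higher and 28.7% lower in proliferation, 11.5% and 12.2% at 24 h, and 25.1% and 25.4% at 72 h. List genes were examined only with all libraries and no lane term, so how their calls depend on either is not known. Over all genes a lane term took the 72 h calls to 3402, against 6029. Of 19 measured rows (17 symbols, some standing on more than 1 row) of the receptor complex and its coregulators, 6 were higher and 3 lower in coculture at 72 h, with a median log2 fold change of 0.07. The coactivators NCOA2 (0.49 ± 0.08, adjusted p = 5.11e-06) and MED1 (0.37 ± 0.05, adjusted p = 1.29e-07) were among the higher. HSP90AA1, the chaperone that holds the receptor, had 663 ± 15 CPM in coculture and 659 ± 30 CPM in monoculture at 72 h (log2 0.01 ± 0.04, adjusted p = 0.881), and FKBP4, the co-chaperone that FKBP5 opposes, had 93.5 ± 2.4 and 97.5 ± 8.2 CPM in the same order (log2 -0.06 ± 0.05, adjusted p = 0.372). In proliferation 5 of the 19 were higher and 5 lower, among them FKBP4 (0.25 ± 0.05, adjusted p = 0.000194), and at 24 h 4 were higher. Of the 4 measured rows (3 symbols) of cortisol activation and transport, 2 were higher at 72 h. One was H6PD, which supplies the cofactor for cortisol regeneration in the endoplasmic reticulum (log2 0.50 ± 0.08, adjusted p = 4.66e-06), while the reductase HSD11B1 and the mineralocorticoid receptor NR3C2 were not analysed here.

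Widely shared induced targets of the receptor did not move as a block. Of 23 measured rows (22 symbols), 12 were higher and 7 lower in coculture at 72 h, with a median of 0.21 on the log2 scale, 12 higher and 3 lower in proliferation (median 0.19), and 7 higher and 5 lower at 24 h (median 0.01). CEBPD, a transcription factor induced by glucocorticoids and by inflammatory signals, was higher in coculture at all 3 times (0.41 ± 0.08, 0.64 ± 0.08 and 0.64 ± 0.07, the largest adjusted p being 4.23e-05). The clock gene PER1 was higher at all 3 times as well, by 0.30 ± 0.09, 0.20 ± 0.06 and 0.21 ± 0.06 (adjusted p = 0.00544, 0.016 and 0.00704). At 72 h the metallothionein MT2A averaged 22.5 ± 11.6 CPM in coculture and 4.29 ± 1.22 CPM in monoculture (log2 2.42 ± 0.25, adjusted p = 1.72e-09), and TNFAIP3, a brake on NF-κB signalling, 23.3 ± 8.5 and 7.74 ± 1.72 CPM (log2 1.62 ± 0.18, adjusted p = 9.1e-09). In the other direction was ERRFI1, an inhibitor of the EGF receptor (log2 -0.68 ± 0.09, adjusted p = 1.75e-07). ERRFI1 had been higher in coculture in proliferation and at 24 h (log2 0.52 ± 0.09 and 0.72 ± 0.09, adjusted p = 1.96e-05 and 1.06e-06), while NFKBIA, the NF-κB inhibitor, was not called at any time (adjusted p 0.083 to 0.823).

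Of 12 measured muscle catabolic and metabolic targets, 6 were higher and 2 lower in coculture at 72 h (median 0.22, log2). FOXO1, a transcription factor of muscle atrophy, was higher (28.6 ± 1.5 CPM in coculture and 21.1 ± 2.3 CPM in monoculture, log2 0.44 ± 0.08, adjusted p = 2.84e-05), as was the ubiquitin ligase CBLB (log2 0.51 ± 0.05, adjusted p = 1.6e-09). KLF15, a partner of the receptor in muscle metabolism, was lower (1.77 ± 0.60 CPM in coculture and 4.18 ± 0.75 CPM in monoculture, log2 -1.23 ± 0.20, adjusted p = 8.09e-06), the opposite direction to KLF9. FBXO32, the atrophy ligase atrogin, was not called at 72 h (log2 0.08 ± 0.16, adjusted p = 0.699), and TRIM63 was not analysed here. In proliferation 4 of the 12 were higher and 5 lower, and at 24 h 4 and 4.

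Inflammatory genes that glucocorticoids are known to repress were more often called higher than lower in coculture at 72 h. The list has 20 symbols, of which only 10 were measured. Of those 10, 5 were higher in coculture at 72 h, 1 was lower and the other 4 were not called (median 0.51, log2). Of all genes 25.1% were called higher and 25.4% lower. In proliferation 1 of the 10 was higher and 5 were lower (median -0.33), and at 24 h 5 were lower (median -0.40). The cytokine IL6 averaged 128 ± 59 CPM in coculture and 20.2 ± 5.9 CPM in monoculture at 72 h (log2 2.67 ± 0.22, adjusted p = 1.16e-11). The chemokine CXCL5 averaged 479 ± 159 and 82.3 ± 20.0 CPM in those groups (log2 2.55 ± 0.16, adjusted p = 9.55e-14), and CCL2, which draws in monocytes, 225 ± 62 and 71.6 ± 21.9 CPM (log2 1.67 ± 0.14, adjusted p = 3.46e-11). These genes varied more between replicate libraries of coculture at 72 h than NR3C1 did (62.2 ± 2.2 CPM).

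DUSP1 is also one of the early genes that serum and growth factors induce, and at 72 h others of that kind were lower in coculture as well. Of 20 other such genes, 4 were higher and 9 lower at 72 h (median -0.27, log2), after 11 higher and 2 lower in proliferation (median 0.25) and 9 higher and 3 lower at 24 h (median 0.19). The orphan receptor NR4A1 averaged 142 ± 6 CPM in coculture and 309 ± 43 CPM in monoculture at 72 h (log2 -1.13 ± 0.07, adjusted p = 3.88e-14), NR4A2 25.0 ± 1.3 and 53.8 ± 6.5 CPM (log2 -1.11 ± 0.08, adjusted p = 9.78e-13) and the stress factor ATF3 29.6 ± 1.9 and 57.3 ± 12.2 CPM (log2 -0.96 ± 0.09, adjusted p = 1.98e-10). At 24 h NR4A1 (1.40 ± 0.10) and NR4A2 (0.88 ± 0.12) had been higher in coculture (log2, adjusted p = 8.13e-12 and 3.1e-06), so they changed sides as DUSP1 did. EGR1 had the largest fold change of the 20 at 24 h (log2 3.47 ± 0.13, adjusted p = 1.53e-18), at 30.4 ± 4.8 CPM in coculture and 2.69 ± 0.75 CPM in monoculture.

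**Figure D4:**
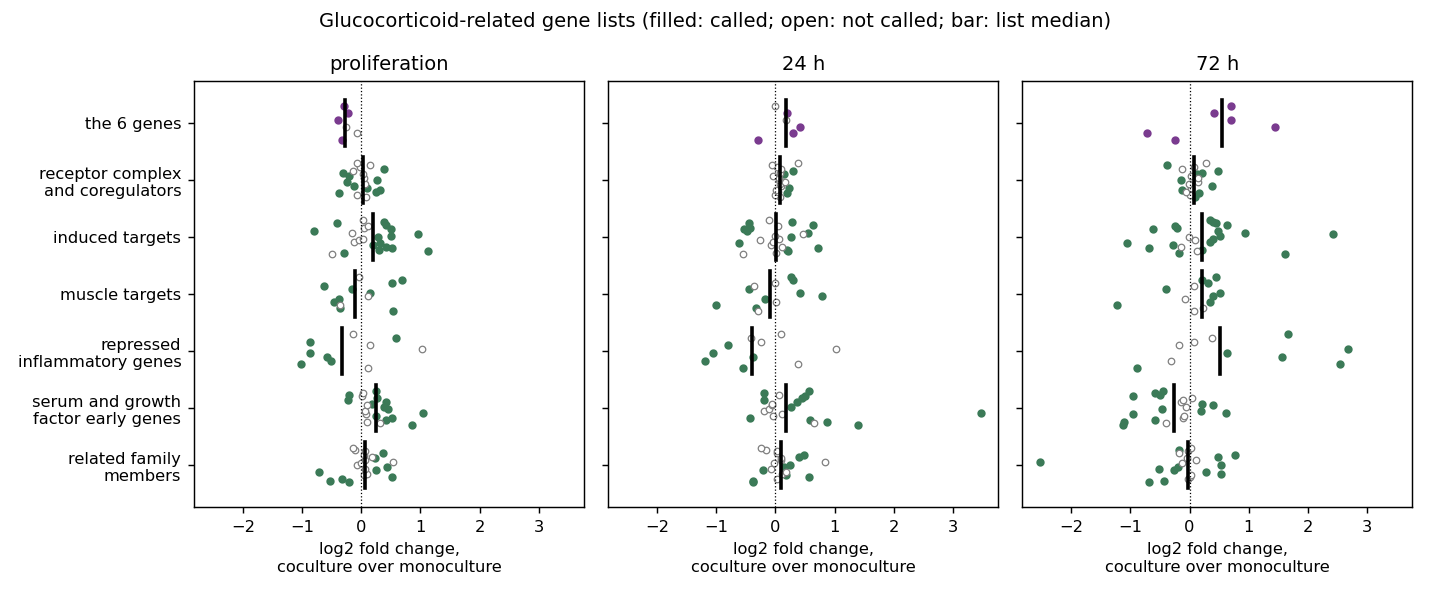
Difference of coculture from monoculture (log2 fold change) for the 6 genes (top, purple) and for each measured gene of 6 related lists (green), in proliferation, at 24 h and at 72 h, with filled points called, open points not called and a vertical bar at each list's median. At 72 h the median of the 6 genes is 0.55, that of the repressed inflammatory genes 0.51 and that of the early genes -0.27.

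Relatives of the members were split. Among 21 measured rows of family members (20 symbols), 5 were higher and 7 lower in coculture at 72 h (median -0.03, log2), 5 higher and 4 lower in proliferation, and 6 higher and 3 lower at 24 h. DUSP5, a phosphatase of ERK, was the most reduced at 72 h, with 4.12 ± 1.07 CPM in coculture and 23.6 ± 8.0 CPM in monoculture (log2 -2.53 ± 0.19, adjusted p = 2.8e-12), and DUSP10, which acts on JNK and p38, was lower too (log2 -0.68 ± 0.07, adjusted p = 1.22e-09). DUSP6 was not called (log2 0.01 ± 0.16, adjusted p = 0.955). SGK3 went the other way from SGK1 at 72 h (log2 0.28 ± 0.09, adjusted p = 0.013) after being lower in proliferation (log2 -0.71 ± 0.08, adjusted p = 1.89e-08). KLF7 was higher like KLF9 (log2 0.77 ± 0.08, adjusted p = 2.06e-09). TSC22D1 is uncertain because its symbol stands on 2 rows, of which 1 was lower at 72 h (log2 -0.18 ± 0.06, adjusted p = 0.0165).

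Across the 24 libraries, which share 6 group means and are therefore not 24 independent points, the members fell into pairs of like pattern. Pearson's r of log2 CPM was 0.917 for TSC22D3 and FKBP5, 0.888 for SGK1 and DUSP1, 0.838 for NR3C1 and KLF9 and 0.828 for FKBP5 and KLF9, and it was lowest, at 0.37, for FKBP5 and SGK1. After the group means were taken out, the 15 pairs ran from -0.384 to 0.613, the highest being FKBP5 and KLF9, followed by NR3C1 and KLF9 at 0.541. TSC22D3 and FKBP5 were then at -0.38 and SGK1 and DUSP1 at -0.0861, so the likeness of those pairs lay between the group means. Spearman's rho over the 24 libraries was 0.815 for TSC22D3 and FKBP5, 0.748 for FKBP5 and KLF9, 0.594 for SGK1 and DUSP1 and 0.529 for NR3C1 and KLF9. The genes most like each member over the 24 libraries were IFIT5 (r = 0.953), TFRC and MAN1A1 for NR3C1, CALCOCO2 (0.955), PTPN21 and XDH for FKBP5, and P4HA3 (0.978), NFKBIZ and TMBIM6 for TSC22D3. For KLF9 they included HERPUD2 (0.944) and SOD2, for SGK1 GNG11 (0.966), CTSV and MTUS1, and for DUSP1 FHOD3 (0.989), TCIM and NR4A2 (0.985). No member was among the 3 genes most like another.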

How the data were processed

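Whole-number read counts per gene and library were deposited by the authors. The submitters' processing notes name FastQC, STAR, RSEM and DESeq2 and give no versions, so the counts may be rounded RSEM estimates. A further 3 deposited tables, per the file headers, give the authors' log2 fold change between cultures at each time with its standard error and p-values, and were read where named. Of 36 library columns in the count table, 24 match the labels and the other 12 were not used.

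Analysis used edgeR 4.0.16 in R 4.3.3, with TMM scaling, filterByExpr (which removed 0 genes), 1 mean per group (18 residual degrees of freedom), the quasi-likelihood F test and Benjamini-Hochberg adjustment over 11937 genes at a threshold of 0.05. The standard error is the fold change on the log2 scale, without its sign, divided by the square root of F. The biological coefficient of variation was 6.86%. Correlations used log2 CPM with a prior count of 2. Steps were tested on simulated data. Alternatives included DESeq2 1.42.0, other scaling, a lane term and leaving out each library. The strand setting of the counting is not stated, so overlapping genes are uncertain.

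The members and lists were chosen with earlier results of these data known. Named in the text are the 6 members, up to 3 called genes per list with the largest change, a fixed set of receptor-related genes, and the 3 genes most like each member, apart from a few that are not reported here. Symbols on more than 1 row are uncertain.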

Additional observations from a re-analysis of the deposited data

Results flagged for a closer look

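The culture difference (coculture minus monoculture, log2) changed between times for 5 of the 6 genes, by edgeR's test of the difference itself in all 3 pairs of times. The same tests called 50.5% of all genes from proliferation to 24 h, 23.7% from 24 h to 72 h and 62.3% from proliferation to 72 h. From proliferation to 24 h it changed by 0.56 for NR3C1 (adjusted p = 8.44e-06), 0.43 for TSC22D3 (4.6e-05), 0.28 for FKBP5 (0.0372), 0.68 for KLF9 (0.0125) and 0.36 for DUSP1 (0.000271). From 24 h to 72 h it changed by 0.53 for NR3C1 (adjusted p = 4.5e-05), 0.22 for TSC22D3 (0.0274), 0.71 for FKBP5 (6.92e-06), 1.03 for KLF9 (0.000388) and -1.01 for DUSP1 (3.5e-11). From proliferation to 72 h it changed by 1.09 for NR3C1 (adjusted p = 2.07e-11), 0.64 for TSC22D3 (2.97e-08), 0.99 for FKBP5 (9.16e-09), 1.70 for KLF9 (5.17e-08) and -0.65 for DUSP1 (1.77e-08). The values for FKBP5 to 24 h and for TSC22D3 after 24 h were the least stable when single libraries were left out. With a lane term both calls were lost (0.21, adjusted p = 0.167, for FKBP5 and 0.16, adjusted p = 0.162, for TSC22D3). For single members, no library stood far from the other 3 of its group in the 36 sets of 4 tested, by Dixon's criterion, which chance passes in about 1 of 20.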

How the results depend on the processing

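Across 72 comparisons of single members, 739 of 768 values under other settings and 679 of 720 with a library left out kept direction and side of the threshold. DESeq2, its size factors and other filters changed none of the calls. At 24 h the members called went to 2, against 4, with a lane term and with lane 6 alone, and the calls over all genes to 1977 and 1746, against 2836. At 72 h a lane term took the members called to 5, against 6, and the calls over all genes to 3402, against 6029. From proliferation to 72 h in coculture all 6 members stayed called with it, and the calls over all genes went to 4368, against 7203.

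With a library left out, the members called stayed at 4 in proliferation and 6 at 72 h, ran from 3 to 5 at 24 h, and for the change of the culture difference to 24 h from 3 to 5, the 3 arising without coculture replicate 2 of proliferation (FKBP5 0.25, adjusted p = 0.0854, and KLF9 0.53, adjusted p = 0.0559). That FKBP5 change was lost in 9 of 16 such fits (0.22 to 0.34, highest adjusted p 0.102), and the TSC22D3 change after 24 h in 5 of 16 (0.16 to 0.26, highest 0.0839) and without the libraries above 1.5% ribosomal RNA (0.09, adjusted p = 0.386). KLF9 from 24 h to 72 h in monoculture was lost in 4 of 8 (0.28 to 0.49).

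Signs turned on values that were not called with all libraries and TMM scaling. With library totals alone NR3C1 at 24 h in coculture was -0.054 and KLF9 at 72 h in monoculture -0.0045 (log2, over proliferation). Without the libraries rich in ribosomal RNA, FKBP5 at 24 h was 0.022 between cultures and the SGK1 change to 24 h -0.0018. With the lane 7 coculture libraries alone at 24 h, chosen after seeing the data, FKBP5 was 0.055. Leaving out single libraries gave -0.015 to 0.12 for NR3C1 at 24 h in coculture, -0.0049 to 0.072 for the SGK1 change to 24 h, -0.17 to 0.031 for KLF9 at 24 h in monoculture and -0.048 to 0.022 for FKBP5 at 24 h between cultures. The cause was not tested.

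Library totals alone also moved the share of called genes that were higher, to 39.5% (51.3% with TMM) between cultures in proliferation. In coculture it was 21.7% (48.5%) at 24 h and 32.4% (50.3%) at 72 h over proliferation. In monoculture it was 29.5% (50.0%) and 25.3% (50.2%), and 27.0% (50.6%) from 24 h to 72 h. FKBP5 over proliferation at 72 h in monoculture was then 0.18 (adjusted p = 0.0514). For the change of the culture difference the share was 58.8% (48.1%), 85.4% (50.6%) and 71.3% (50.3%). Replicate numbers did not pair libraries (mean r -0.0145 over 60 same-number pairs), and with a replicate block KLF9 at 72 h in monoculture became called (0.33, adjusted p = 0.0428), the single call to change. Depth limits KLF9 most, with 52 to 343 counts.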
